A study of Mus musculus with 30 samples.

Results

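Macrophages carrying an shRNA against Etv1 were compared with macrophages carrying a control shRNA, both without any stimulus. The comparison takes 6 of the 30 libraries of the series, 3 with the Etv1 hairpin and 3 with the control hairpin, chosen by their labels alone and used as raw counts over all genes. All were bone marrow derived macrophages of C57BL/6 mice, grown with CSF-1 at 20 ng/mL and taken as mature cells at day 7, and both hairpin groups received lentivirus. The other groups of the series, which enter here only where named, were the same hairpins under IL-4 or IL-4 with prostaglandin E2 (PGE2), and wild type macrophages without a hairpin, left unstimulated or given those agents or valinomycin. The labels name 1 Etv1 shRNA group and no hairpin sequence, so loss of Etv1 and other effects of the hairpin or of its integration cannot be told apart.

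Etv1 is an ETS family transcription factor of the PEA3 subgroup, whose close relatives are Etv4 and Etv5. ETS factors bind a core of GGAA in DNA and many answer to ERK signalling downstream of growth factor receptors, and the ETS factor PU.1 (Spi1) is the master regulator of macrophages. CSF-1, which these cells need to live and divide, signals through the receptor Csf1r and the ERK pathway. The unstimulated comparison shows what differs between the hairpins in resting cells, before the alternative activation that IL-4 brings and the cyclic AMP signal that PGE2 brings.

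Library totals were 6924973 to 11907864 counts with the Etv1 hairpin and 9981301 to 20658411 with the control hairpin, so that 3 counts stand for 0.145 to 0.433 counts per 1000000 counts of the library (CPM). Levels below are CPM scaled by TMM. Control replicate 2 stood apart from the other control libraries: the chi-square per degree of freedom of its counts over genes was 20.34 and 13.14 against them and 4.61 between them, with 3.281 to 6.69 among the Etv1 hairpin libraries. Changes that this library moved by more than 1.5 times are given with and without it. The 9 macrophage markers were all detected in both groups, at a summed 9366 to 9948 CPM with the Etv1 hairpin and 18830 to 20860 with the control, a gap made mostly by Lyz2. Most markers of other cells were low. The 13 lymphocyte markers summed to 0.1345 to 0.3904 against 0.8152 to 2.739 CPM, with Cd3e, Ms4a1 and 7 others at 0 in all 6 libraries, the 13 neutrophil markers to 2.733 to 7.286 against 6.065 to 14.92, with Ly6g and Retnlg at 0, and the 11 stromal markers to 0.6724 to 2.01 against 1.426 to 3.179, with Col3a1, Pdgfra and Lum at 0. Other sums differed more. The 8 monocyte markers summed to 99.79 to 112.4 against 19.96 to 29.59 CPM, mostly Vcan. The 11 dendritic cell markers summed to 103.8 to 145.9 against 264.5 to 301.3, mostly Bst2, an interferon response gene as well, with Siglech at 0. The 9 mast cell and basophil markers summed to 4.294 to 5.379 against 0.8147 to 1.793, with Cpa3 and 5 others at 0. With the Etv1 hairpin this sum was mostly Gata2. The 12 erythroid and megakaryocyte markers summed to 205 to 255.9 against 48.67 to 124.3 CPM, nearly all of it Pf4, which macrophages also express, while the globin gene Hbb-bs was at 0. Of 10 genes that follow RNA quality 1 was higher (0 without Etv1 shRNA replicate 1 or 2 or control replicate 3) and 5 lower, among them the small structural RNA Rn7sk (1.48, 2.34 and 1.48 against 6.70, 8.48 and 7.23 CPM). The part of these differences in the results below was not tested.

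The target came first. Etv1 (ENSMUSG00000004151, chromosome 12, 38779380 to 38870484, GRCm38) stood at 4.84, 2.51 and 2.97 CPM in the Etv1 hairpin libraries and at 10.9, 10.4 and 10.5 in the controls, with no overlap. The log2 fold change was -1.69 ± 0.20 (SE; edgeR quasi-likelihood test, Benjamini-Hochberg adjusted p = 1.16e-06). Etv1 is a scarce transcript in these cells. Per kilobase of exon the control libraries held 0.796 ± 0.022 CPM of Etv1 (SD, n = 3), 18.6 ± 1.4 of its relative Etv5 and 196 ± 15 of Spi1, the most abundant ETS gene of the 19 tested.

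Other ETS genes changed as well, mostly downward. Of the 19 tested, Etv1 included, 4 rose and 9 fell, with a median log2 change of -0.159, where 24.9% of all 12382 genes tested were called higher and 26.8% lower (51.7% in all, median -0.0122). Ets1, known chiefly from lymphocytes, fell from 12.7, 11.9 and 13 to 2.15, 2.93 and 2.42 CPM (log2 -2.30 ± 0.23, edgeR adjusted p = 2.77e-07). Fli1, a regulator of blood cell development, fell from 62.7 to 72.8 CPM down to 28.6 to 29.8 (-1.20 ± 0.07, adjusted p = 5.16e-11), and Ets2, which responds to CSF-1 signalling, from 128 to 189 CPM down to 57.7 to 85.3 (-1.13 ± 0.23, adjusted p = 0.00122). Both relatives of the PEA3 subgroup rose. Etv5 was at 115, 94.2 and 109 against 82.1, 70.3 and 76.8 CPM (0.47 ± 0.15, adjusted p = 0.0201, and 0.0690, 0.0558 and 0.0748 without Etv1 shRNA replicate 1 or 3 or control replicate 2), and Etv4 at 0.941, 1.09 and 1.09 against 0.245, 0.0815 and 0.102 (2.62 ± 0.56, adjusted p = 0.000845), only a few counts per library. Spi1 changed little, by -0.18 ± 0.06 (adjusted p = 0.0225), and lost its call without Etv1 shRNA replicate 1 or 2 or control replicate 3 (adjusted p = 0.0592, 0.0598 and 0.136).

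Across all genes, 6405 of the 12382 tested were called, 3084 higher and 3321 lower with the Etv1 hairpin. Changes of at least 2-fold were seen for 563 genes upward (4.55%) and 796 downward (6.43%). The 3 libraries of each group did not overlap for 3512 genes above (28.4%) and 3729 below (30.1%). Separate cultures are not named for the replicates in the labels, so the p-values speak only of scatter among these libraries, part of which could be technical.

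**Figure D1:**
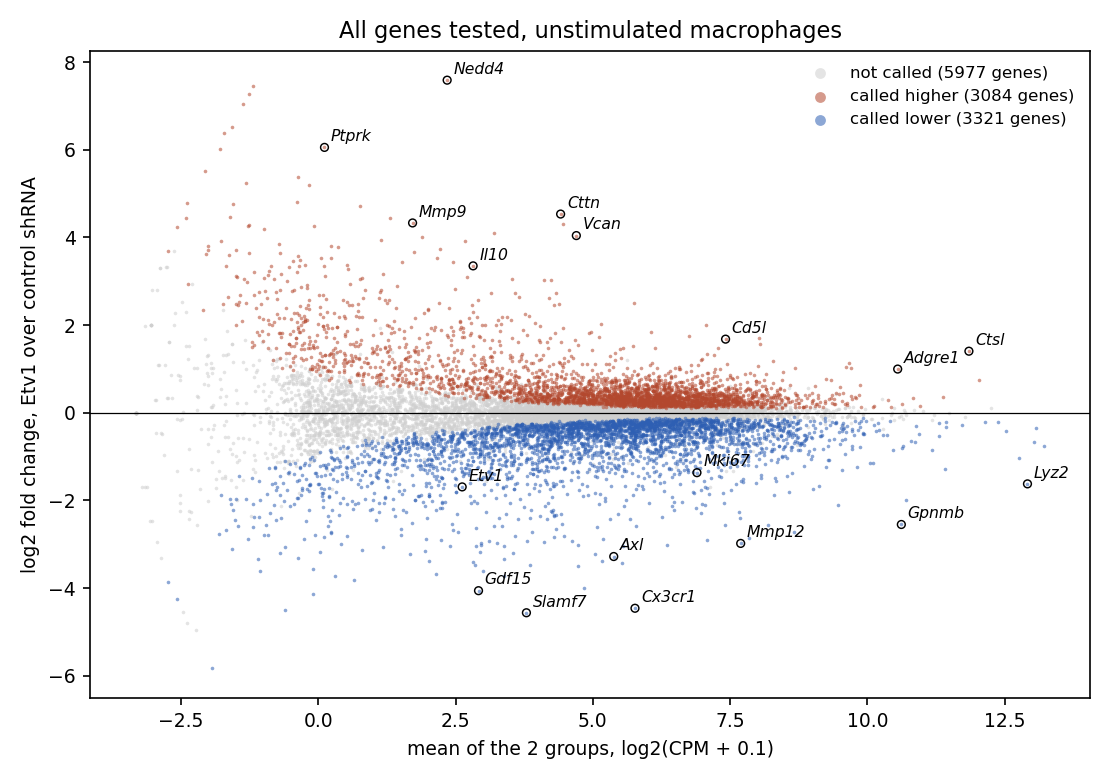
Each point is 1 of the 12382 genes tested, with the mean level of the 2 groups in log2(CPM + 0.1) on the horizontal axis and the log2 fold change, Etv1 over control shRNA, on the vertical axis; red genes were called higher, blue lower, grey not called. Nedd4 lies far above and Slamf7 and Cx3cr1 far below the bulk of genes at their level, and the abundant Lyz2 and Gpnmb lie well below 0.

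The largest rise was that of Nedd4 (ENSMUSG00000032216, chromosome 9, 72662346 to 72749852), a ubiquitin ligase that sends membrane receptors and channels to degradation. It was nearly silent in the controls at 0.293, 0.163 and 0.509 CPM and reached 73.0, 68.6 and 42.2 with the Etv1 hairpin (log2 7.59 ± 0.47, edgeR adjusted p = 1.38e-08). The rise was not shared by its neighbours: of the 12 other tested genes that start within 1000000 bases of its start, 1 was called higher and 4 lower, and their log2 changes ran from -1.43 to 0.225. The receptor phosphatase gene Ptprk followed with 8.74, 4.94 and 7.26 CPM, where 2 control libraries had 0 counts and the other 0.196 CPM.

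Among the other large rises, Cttn, which encodes the actin branch regulator cortactin, rose from 4.99, 5.38 and 2.44 to 119, 110 and 82.0 CPM (4.53 ± 0.28, edgeR adjusted p = 1.75e-08). Scin, an actin severing protein, rose by 3.54 ± 0.38, and by 4.27 without control replicate 2. Vcan, which encodes the proteoglycan versican, went from 3.62, 9.86 and 6.01 to 107, 106 and 93.0 CPM (4.04 ± 0.27), and Chpf, a chondroitin polymerising factor, from 2.89, 7.17 and 4.99 to 93.3, 104 and 85.9 (4.31 ± 0.23, adjusted p = 1.57e-09). Fibronectin (Fn1) stood at 19.8, 12.9 and 15.1 against 0.587, 2.45 and 0.713 CPM (3.73 ± 0.44, and 4.61 without control replicate 2). The gelatinase gene Mmp9 was the most variable of these, at 19.1, 6.03 and 17.2 against 0.783, 0.489 and 0.713 CPM (4.33 ± 0.76, adjusted p = 0.000346). Gfra2, a receptor for neurturin, rose by 4.72 ± 0.38, the calcium binding Cpne8 by 4.45 ± 0.34, the small GTPase Diras2 by 4.02 ± 0.30 and the collagen gene Col4a6 by 3.94 ± 0.44. Tnfsf4, the costimulatory ligand OX40L, rose from 1.66, 1.39 and 1.73 to 21.4, 18.8 and 12.5 CPM (3.43 ± 0.28). The largest rises were named only from genes whose groups did not overlap, so that trait was set by the choice.

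The matrix and adhesion list as a whole did not lean one way: 9 of 33 tested members rose and 8 fell, with a median of -0.090. Against the rises just named, the macrophage elastase Mmp12 fell from 364, 940 and 446 to 47.1, 116 and 56.9 CPM (-2.98 ± 0.60, edgeR adjusted p = 0.00106, and -2.45 without control replicate 2), and the metalloprotease inhibitor Timp2 from 165, 82.8 and 155 to 24.7, 19.3 and 23.3 (-2.59 ± 0.31). The integrin subunit Itgav, which pairs into the vitronectin receptor, rose by 1.02 ± 0.07 to 1143 to 1274 CPM. Mmp9 is also a marker of osteoclasts, the bone resorbing cells that share a precursor with macrophages. Of the 7 osteoclast markers tested 6 rose and 0 fell, among them the fusion genes Dcstamp (31.2, 25.6 and 34.7 against 5.67, 9.95 and 4.28 CPM; 2.20 ± 0.30) and Ocstamp (1.17 ± 0.21) and the acid phosphatase gene Acp5 (2.04 ± 0.21). Ctsk, the osteoclast protease, was at a mean of 1.64 against 1.77 CPM and was not called.

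**Figure D2:**
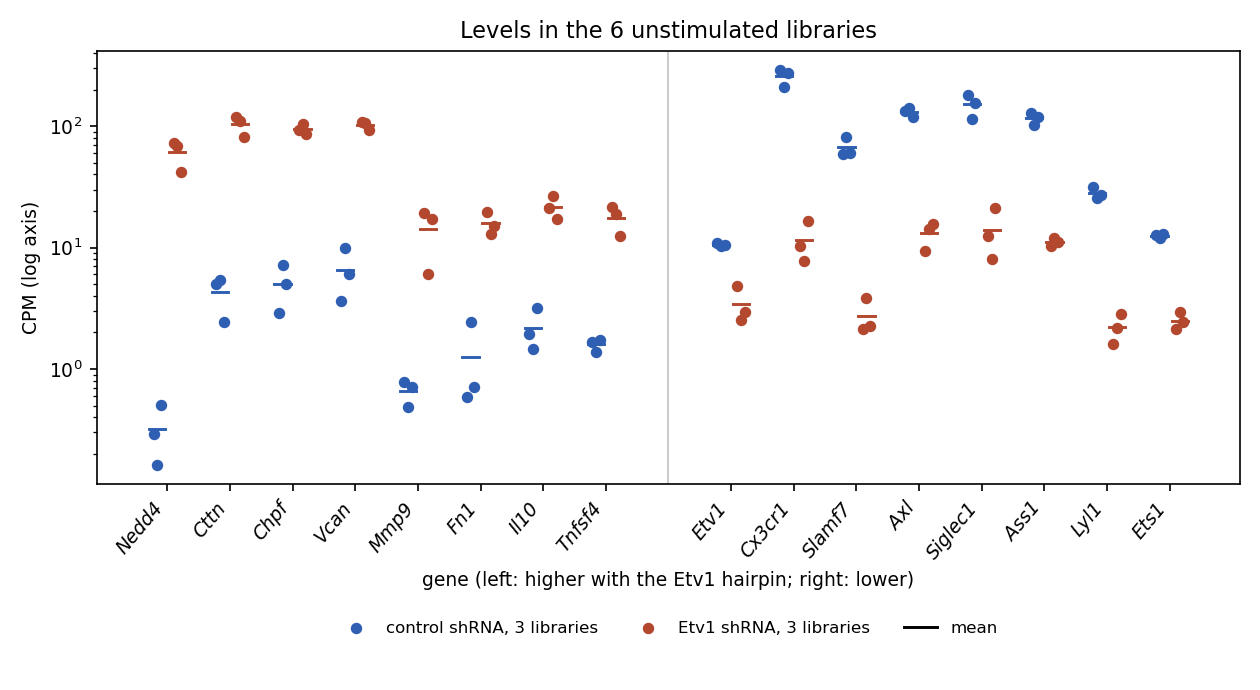
CPM on a log axis of 16 genes in the 6 unstimulated libraries, blue for control and red for Etv1 shRNA, each point a library and each bar the mean of 3. In all 16 genes the highest library of the lower group lies below the lowest library of the higher group. That was a condition for naming the largest rises and falls, and 28.4% of all genes tested met it above and 30.1% below.

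The largest falls included receptors, secreted factors, enzymes and a transcription factor. Cx3cr1 (ENSMUSG00000052336, chromosome 9, 119901616 to 120069879), the fractalkine receptor that marks resident macrophages and microglia, fell from 287, 208 and 273 to 10.2, 7.79 and 16.4 CPM (-4.46 ± 0.21, edgeR adjusted p = 6.48e-10). The self-ligand receptor Slamf7 fell from 58.9, 81.7 and 60.2 to 2.15, 3.85 and 2.26 CPM (-4.56 ± 0.30, adjusted p = 1.83e-08). Axl, a receptor through which macrophages take up dying cells, fell from 133, 141 and 119 to 9.41, 14.2 and 15.8 CPM (-3.28 ± 0.17), and the sialic acid receptor Siglec1 from 182, 114 and 156 to 12.5, 8.12 and 21.2 (-3.42 ± 0.50). Spn, the sialophorin CD43, fell by 3.33 on the same scale. Among secreted factors, Gdf15, a stress cytokine, fell from 29.9, 26.9 and 35.1 to 1.21, 2.34 and 1.72 CPM (-4.06 ± 0.19), and neuropeptide Y (Npy) from 89.3, 162 and 98.2 to 4.17, 10.0 and 6.64 (-4.0 ± 0.46). The haematopoietic transcription factor gene Lyl1 fell by 3.62 and the intermediate filament gene Nes changed by -3.48 ± 0.58. Among enzymes were the cholesterol 25-hydroxylase Ch25h (-3.48 ± 0.70), the itaconate producing Acod1 (-3.46 ± 0.46), and Ass1 of arginine synthesis, at 10.2, 11.9 and 11.2 against 127, 103 and 119 CPM (-3.38 ± 0.15, adjusted p = 3.54e-11). Slfn4, an interferon inducible gene of myeloid cells, fell by 3.41. The plot of levels by library shows how far apart the groups stood.

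Genes by which macrophages are recognised were lower for the most part. Of 20 macrophage identity genes 3 rose and 15 fell (median -0.430). Lyz2, lysozyme, was among the most abundant messages and fell from 12433, 13724 and 14484 to 4356, 4343 and 4503 CPM (-1.62 ± 0.07, edgeR adjusted p = 1.58e-12). The high affinity IgG receptor Fcgr1 fell from 54.1, 110 and 63.7 to 12, 15.6 and 27.1 CPM (-2.01 ± 0.33) and the LPS co-receptor Cd14 from 679, 485 and 638 to 170, 122 and 200 (-1.87 ± 0.25). Cd68 fell by 0.82 and the CSF-1 receptor gene Csf1r by 0.64 (1391 to 1468 against 2133 to 2285 CPM). The F4/80 gene Adgre1 went the other way, 2387, 1875 and 2096 against 1175, 815 and 1195 CPM (1.0 ± 0.21, adjusted p = 0.00137), as did the transcription factor gene Maf (0.84 ± 0.11). The summed monocyte, dendritic and mast cell markers given above differed between the same libraries, and their part in these changes was not tested. In bulk RNA, fewer cells of a type and less of a message per cell cannot be told apart. Irf8, a factor of the monocyte and dendritic lineages, fell from 189, 163 and 192 to 41.3, 39.4 and 43.8 CPM (-2.13 ± 0.07, adjusted p = 1.13e-13), a change several times the spread between libraries.

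Receptors that sense microbes and the pathway below them were lower. Of 22 genes for Toll-like receptors and their adaptors 4 rose and 14 fell (median -0.403). The endosomal RNA sensors fell, Tlr7 from 134, 126 and 138 to 31.7, 26.1 and 37.5 CPM (-2.06 ± 0.22) and Tlr13, which detects bacterial ribosomal RNA, from 622, 686 and 616 to 253, 250 and 235 (-1.38 ± 0.13), and the kinase gene Irak2 fell by 1.88. The flagellin receptor gene Tlr5 rose instead, from 0.734, 1.14 and 0.916 to 7.4, 4.61 and 4.14 CPM (2.50 ± 0.21, edgeR adjusted p = 7.59e-09). Of 16 NF-kB pathway genes 2 rose (1 without Etv1 shRNA replicate 2 or control replicate 2) and 9 fell (median -0.424); the feedback inhibitor Tnfaip3, also called A20, fell from 43.0, 44.0 and 47.8 to 8.61, 9.55 and 8.51 CPM (-2.33 ± 0.11). Of 23 immediate early genes, which serum and growth factors switch on within minutes, 4 rose and 13 fell (median -0.498), with Jun at -1.71 ± 0.12 and Atf3 at -1.59 ± 0.10.

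The signals that macrophages send out followed, with single exceptions. Of 19 chemokine genes 3 rose and 11 fell, with a median of -1.066, the lowest of all pathway lists. Ccl4 fell from 40.9, 30.7 and 41.8 to 2.15, 3.18 and 3.05 CPM (-3.71 ± 0.32), Ccl3 from 43.7, 27.6 and 43.1 to 4.71, 5.95 and 4.45 (-2.91 ± 0.23), Cxcl16 from 272, 227 and 319 to 60.7, 65.2 and 62.9 (-2.11 ± 0.13) and Cxcl2, which draws neutrophils, by 3.15. The 3 risen members were Ccl9 (0.61 ± 0.10, at 626 to 676 CPM), Pf4 (1.31 ± 0.34, adjusted p = 0.0540 with only the 6 libraries) and Ppbp (3.53 ± 0.47), the latter pair known best from platelets. Of 12 inflammatory cytokine genes 1 rose and 5 fell. Tnf fell from 54.6, 48.5 and 60.1 to 14, 14.6 and 15.1 CPM (-1.90 ± 0.13, edgeR adjusted p = 3.8e-10), and the single riser was Il10, the main anti-inflammatory cytokine of macrophages, from 1.96, 1.47 and 3.16 to 21.2, 26.6 and 17 (3.35 ± 0.27, adjusted p = 5.79e-08). Of 17 chemoattractant receptor genes 2 rose (1 without Etv1 shRNA replicate 2 or control replicate 3) and 9 fell: besides Cx3cr1, the monocyte receptor gene Ccr2 fell by 1.62, and Ccr3, the eotaxin receptor of eosinophils, rose from 4.30, 4.48 and 5.09 to 31.3, 35.2 and 25.3 CPM (2.74 ± 0.18).

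Interferon response genes had a low median, -0.899 over 41 tested members, but 10 fell and 0 rose, a share of 24.4% lower that is near the 26.8% of all genes. The spread inside the groups was wide. Ifit1 read 59.4, 112 and 152 CPM with the Etv1 hairpin and 141, 491 and 192 with the control, where the high value belongs to control replicate 2, and the groups overlapped (-1.33 ± 0.68, edgeR adjusted p = 0.122). Without that library the change was -0.60. Ifit3 was at 29.0, 57.8 and 82.5 against 144, 524 and 175 CPM (-2.28 ± 0.72, adjusted p = 0.0181), and without control replicate 2 its change was -1.47 (adjusted p = 0.103). Its call was also lost without Etv1 shRNA replicate 1 or 2 (adjusted p = 0.0672 and 0.0534). Without control replicate 2 the number of fallen members was 6, without control replicate 1 it was 18, and without Etv1 shRNA replicate 1 it was 6. Mx1 (-1.86 ± 0.41) and Ifi27l2a, at 31.5, 16.1 and 38.3 against 263, 141 and 284 CPM (-3.01 ± 0.46, adjusted p = 0.000118), were among the fallen. Of 18 antigen presentation genes 1 rose and 10 fell, or 6 without Etv1 shRNA replicate 1, with the class I genes B2m at -0.79 ± 0.08 and H2-K1 at -0.51 ± 0.08.

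Uptake and breakdown genes split. Of 27 scavenging and phagocytosis receptors 7 rose and 14 fell (median -0.387), and of 10 complement genes 2 rose and 7 fell (-0.903). The IgG receptor Fcgr3 fell from 253, 276 and 271 to 94.7, 99.9 and 96.0 CPM (-1.46 ± 0.07), the C-type lectin Clec4e, a sensor of mycobacterial lipid, from 157, 179 and 185 to 27.7, 40.4 and 31.9 (-2.37 ± 0.16), the scavenger receptor Stab1 by 1.81, and C1qb of the first complement component by 1.68. Cd5l, a secreted scavenger protein of tissue macrophages, rose from 103, 62.5 and 121 to 371, 290 and 256 CPM (1.68 ± 0.31, edgeR adjusted p = 0.000498) and Tyro3, a relative of Axl, from 0.440, 0.326 and 0.916 to 2.42, 3.10 and 1.80 (2.19 ± 0.36). Of 28 lysosome genes 7 rose and 14 fell (median -0.187). Cathepsin L (Ctsl) rose from 1714, 3098 and 1987 to 5875, 6882 and 5236 CPM (1.4 ± 0.30), while cathepsin B (Ctsb) fell by 0.66 (6155 to 7176 against 10368 to 10795 CPM). Gpnmb, a glycoprotein of lysosome-rich macrophages, fell from 2292, 6266 and 2846 to 502, 1005 and 441 CPM (-2.55 ± 0.68, adjusted p = 0.00728, and -1.98 without control replicate 2).

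Genes of cholesterol synthesis rose, and cholesterol exporters fell. Of 23 genes on the cholesterol synthesis list, targets of SREBP-2, 14 rose and 0 fell (1 fell without control replicate 2), a share of 60.9% higher against 24.9% of all genes, with a median of 0.457. Msmo1, a sterol demethylation enzyme, rose from 85.1, 76.4 and 87.6 to 204, 184 and 199 CPM (1.23 ± 0.08, edgeR adjusted p = 1.26e-10), and the sterol sensor Insig1 from 23.2, 19.2 and 24.0 to 50, 44.8 and 49.5 (1.12 ± 0.09). In both genes the groups did not overlap. The exporters, targets of the liver X receptors (LXR), fell: Abcg1 from 167, 222 and 192 to 59.0, 71.4 and 66.9 CPM (-1.55 ± 0.13) and Abca1 by 1.08. The LXR and fatty acid synthesis list came out even, 6 higher and 6 lower of 18, with the desaturase Scd2 among the risen (1.82 ± 0.17).

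Hmgcs1, an early synthase of the pathway, rose by 0.85 ± 0.13, and its promoter is shown because it holds the letters of the sterol regulatory element that SREBP binds. The sequence covers bases 150 to 1 before the RefSeq start on GRCm38.p6 (chr13:119690201-119690350, plus strand), with the element and a CCAAT box (ATTGG on this strand) in capitals.
Hmgcs1: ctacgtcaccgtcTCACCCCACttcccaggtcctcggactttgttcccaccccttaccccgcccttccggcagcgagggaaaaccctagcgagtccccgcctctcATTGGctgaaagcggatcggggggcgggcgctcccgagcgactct
The element was searched as TCACNCCAC on both strands of the 250 bases before each start. Of 19 such windows of 16 matched cholesterol genes, 1 held it (5.26%), against 1.05% of all 32851 windows in the table, and the CCAAT letters were in 16 (84.2%) against 33.8%. Among windows of all tested genes the shares were 1.0% and 35.4%. A match describes letters, not a site in use.

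Genes of the endoplasmic reticulum rose with the sterol genes. Of 17 members of the unfolded protein response list 12 rose and 2 fell (1 without Etv1 shRNA replicate 1 or 3 or control replicate 1 or 3; 70.6% higher, median 0.364), led by the disulfide isomerase Pdia6, at 486, 416 and 503 against 226, 181 and 212 CPM (1.18 ± 0.12, edgeR adjusted p = 5.38e-07), and the cochaperone Dnajc3 (0.94 ± 0.09). The integrated stress response list, another arm of protein stress, split into 10 higher and 11 lower of 25, with the transcription factor genes Ddit3, at 10.8, 11.5 and 10.5 against 31.6, 37.0 and 35.7 CPM (-1.66 ± 0.09), and Atf5 (-1.19 ± 0.13) among the lower. Of 19 targets of the oxidative stress factor NRF2 3 rose and 10 fell, including the ferritin heavy chain Fth1, from 9253, 9817 and 10660 to 4792, 4878 and 4915 CPM (-1.03 ± 0.10), and the peroxiredoxin Prdx1 (-0.86 ± 0.18).

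Energy metabolism changed by smaller amounts. Of 24 glycolysis genes 4 rose and 13 fell (median -0.174), with the sugar transporter Slc2a6 at -1.86 ± 0.19, the regulator Pfkfb3 at -1.08 ± 0.10, Pgk1 at -0.80 ± 0.07, Gapdh at -0.76 ± 0.06 (627 to 685 against 1080 to 1123 CPM) and the hexokinase Hk1 at -0.69 ± 0.07. Of 22 genes of the TCA cycle 11 rose and 3 fell (median 0.131), with the pyruvate dehydrogenase subunit Pdha1 at 0.53 ± 0.05 and citrate synthase (Cs) at 0.37 ± 0.04, and of 19 fatty acid oxidation genes 10 rose and 2 fell (1 without Etv1 shRNA replicate 2 or control replicate 2; median 0.185). Nuclear genes of oxidative phosphorylation were near the background, with 21 higher and 15 lower of 71 (median 0.061), and no member reached a 2-fold change in either direction. The malate-aspartate shuttle, which carries reducing equivalents into mitochondria, had 3 higher and 3 lower of 7. Got1 was at 43.0, 36.7 and 41.1 against 47.8, 44.5 and 50.7 CPM (-0.25 ± 0.09, edgeR adjusted p = 0.0252), a small fall that lost its call without Etv1 shRNA replicate 2 or control replicate 1 or 3 (adjusted p = 0.136, 0.0584 and 0.0901). The carrier Slc25a11 fell by 0.63 and the aspartate carrier Slc25a13 rose by 0.67 ± 0.11.

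The clearest group change was in cell division. All 29 mitosis genes on the list were tested, and 29 fell and 0 rose, where 26.8% of all genes fell, with a median of -1.032 and a range from -1.63 to -0.23. In each of the 29 the 3 Etv1 hairpin libraries lay below the 3 controls. The proliferation marker Mki67 fell from 213, 179 and 181 to 70.2, 81.1 and 71.0 CPM (-1.37 ± 0.08, edgeR adjusted p = 1.1e-10). The cytokinesis genes Anln, from 53.8, 43.5 and 49.1 to 15.1, 17.2 and 15 (-1.63 ± 0.10), Racgap1 (-1.33 ± 0.10) and Prc1 (-1.26 ± 0.09) were among the largest falls, the topoisomerase Top2a fell by 0.93 (157, 138 and 138 to 76.0, 75.7 and 75.7), the spindle motor gene Kif11 by 0.73, and Cdca8 had the smallest, -0.23 ± 0.07 (adjusted p = 0.0124). DNA replication genes did not follow. Of 32 tested, 5 rose and 7 fell, both shares below those of all genes, with a median of -0.017: the helicase subunit Mcm6 read 249, 241 and 269 against 253, 256 and 267 CPM (-0.03 ± 0.06, adjusted p = 0.684), Pcna fell by 0.27, Rrm2 by 0.60, and the flap nuclease Fen1 rose by 0.68 ± 0.06. Leaving out a library gave as few as 3 risen replication genes (without Etv1 shRNA replicate 2) and 4 or 3 fallen ones (without Etv1 shRNA replicate 1 or 3). Without control replicate 2 the mitosis count was again 29 lower and 0 higher.

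Promoters of mitosis genes carry paired elements, the CCAAT box bound by NF-Y and the cell cycle homology region read by the MuvB and DREAM complexes, and 3 of them are shown with those letters in capitals. They are the members with the largest falls that hold both elements in the 150 bases before a RefSeq start with no annotated exon there, on GRCm38.p6: Mki67 (chr7:135716380-135716529, minus strand), Top2a (chr11:99024190-99024339, minus strand) and Kif11 (chr19:37376232-37376381, plus strand). The homology region was searched as TTTGAA or TTCGAA and the box as CCAAT on both strands, so TTCAAA and ATTGG are the reversed forms.
Mki67: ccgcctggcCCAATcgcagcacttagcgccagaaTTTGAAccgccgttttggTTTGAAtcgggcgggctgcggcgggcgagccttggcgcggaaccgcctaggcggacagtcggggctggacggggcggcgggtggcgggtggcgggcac
Top2a: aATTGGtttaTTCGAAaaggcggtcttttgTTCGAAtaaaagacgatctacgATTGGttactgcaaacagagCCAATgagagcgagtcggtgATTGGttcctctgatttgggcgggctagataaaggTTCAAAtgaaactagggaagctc
Kif11: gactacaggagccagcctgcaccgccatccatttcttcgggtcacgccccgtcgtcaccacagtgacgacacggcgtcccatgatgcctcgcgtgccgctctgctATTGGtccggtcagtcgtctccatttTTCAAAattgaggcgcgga
Of 26 windows of 250 bases before the starts of 25 matched mitosis genes, 9 held the homology region (34.6%) and 21 the CCAAT letters (80.8%), against 17.1% and 33.8% of all 32851 windows. Among windows of all tested genes these shares were 12.3% and 35.4%. For the replication genes, which did not fall together, the shares were 12.5% and 62.5% of 32 windows. The ETS letters CCGGAAG, neither part of the other motifs nor holding one, were in 13.9% of windows of all tested genes, in 15% of those of genes called higher and 11.7% of those called lower, and in 5.89% and 5.35% of windows of genes that changed at least 2-fold upward and downward. No inference about binding is drawn from these letters.

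Genes that report on ERK signalling gave no single direction. Of 16 feedback genes 5 rose and 4 fell, with a median of -0.055. The phosphatase gene Dusp6, a direct readout of ERK, fell from 99.8, 107 and 101 to 33.5, 34.7 and 40.5 CPM (-1.49 ± 0.08, edgeR adjusted p = 3.07e-11), and the G1 cyclin gene Ccnd1 from 1573, 1026 and 1514 to 587, 503 and 654 (-1.24 ± 0.23). Dusp5, the nuclear ERK phosphatase, rose from 19.3, 17.8 and 20.1 to 57.8, 61.0 and 68.5 CPM (1.72 ± 0.08, adjusted p = 5.67e-12). Spry4, an inhibitor of receptor tyrosine kinase signalling, had 1 count over the controls and 29 over the Etv1 hairpin libraries, a ratio of 38.3 (95% exact counting interval 6.35 to 1570).

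The PGE2 receptor genes Ptger2 and Ptger4 were lower with the Etv1 hairpin than with the control before any PGE2 was given. Of 18 prostaglandin pathway genes 4 rose (2 without Etv1 shRNA replicate 1 or 2 or control replicate 3) and 7 fell (median -0.088). Ptger2, which encodes the EP2 receptor, fell from 9.05, 10.2 and 9.98 to 1.75, 2.09 and 2.42 CPM (-2.17 ± 0.19, edgeR adjusted p = 1.58e-08), Ptger4, which encodes EP4, from 49.4, 43.4 and 48.7 to 25.4, 26.0 and 24.8 (-0.89 ± 0.11), and the prostacyclin receptor gene Ptgir by 2.93. The cyclooxygenase gene Ptgs1 rose from 4.16, 3.59 and 2.24 to 15.5, 17.5 and 14.5 CPM (2.18 ± 0.18). Targets of cyclic AMP split into 8 higher and 9 lower of 22. Genes of alternative activation, which IL-4 turns on, were mostly near silent without it: 5 rose and 4 fell of 23, with Egr2 at 15.3, 10.1 and 16.1 against 6.16, 4.97 and 5.50 CPM (1.29 ± 0.30), the lectin gene Clec10a at 12.8, 9.21 and 9.45 against 2.89, 2.85 and 2.55 (1.87 ± 0.52, adjusted p = 0.00923) and arginase 1 (Arg1) at 1.34, 1.17 and 2.81 against 0.391, 0.326 and 0.204 (2.46 ± 0.72, adjusted p = 0.0114). Arg1 lost its call without Etv1 shRNA replicate 3 (1.88, adjusted p = 0.0796) and with limma voom (adjusted p = 0.184), and Clec10a with limma voom (adjusted p = 0.0575).

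**Figure D3:**
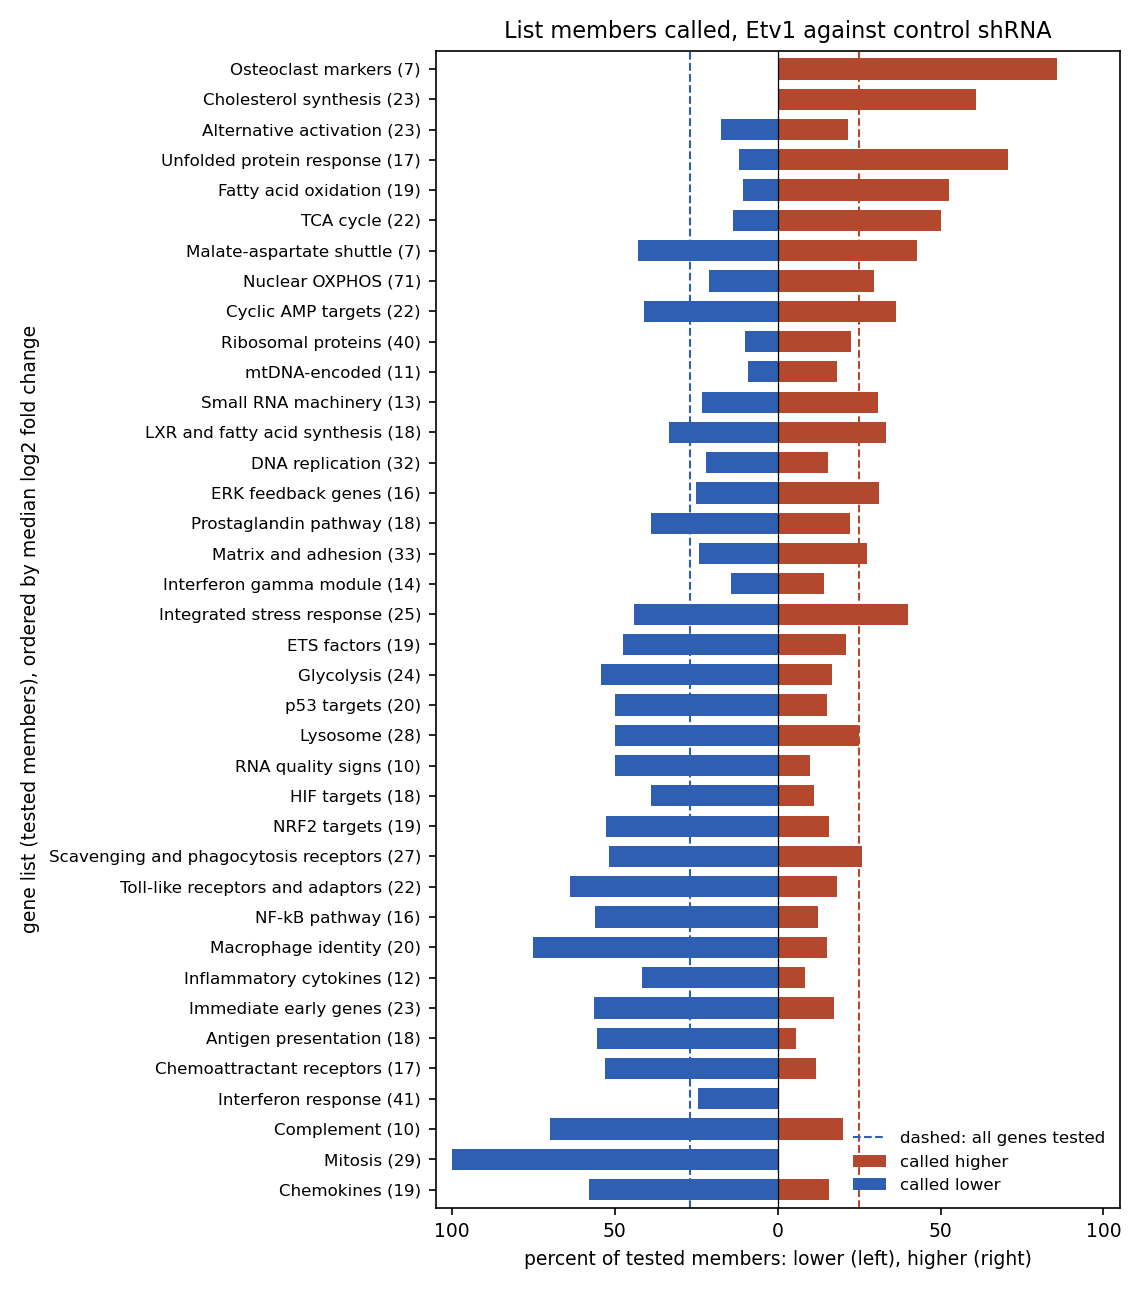
Percent of tested members of each pathway list, and of the osteoclast markers, called higher (red, right) or lower (blue, left) with the Etv1 hairpin, ordered by median log2 fold change; dashed lines mark 24.9% higher and 26.8% lower over all genes tested. Mitosis is the list with 100% of members lower, and osteoclast markers (85.7%), the unfolded protein response (70.6%) and cholesterol synthesis (60.9%) have the highest shares of risen members.

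The same hairpins were then compared under IL-4 and under IL-4 with PGE2, in libraries other than the 6 of the unstimulated contrast. All 18 entered one fit, so calls in the 3 conditions share the filter, the scaling and the estimate of spread. Of the 3084 genes higher without stimulus, 2378 were also higher under IL-4 (77.1% of these and 75.6% of the 3145 higher there) and 2172 with PGE2 added (70.4% and 63.6% of 3415). Of the 3321 lower genes, 2435 were also lower under IL-4 (73.3% and 76.8% of 3172) and 2091 with PGE2 (63.0% and 63.2% of 3307). Over all genes 51% were called under IL-4 and 54.3% with PGE2: 25.4% higher and 25.6% lower under IL-4, and 27.6% and 26.7% with PGE2. Calls in the opposite direction numbered 31 and 51 under IL-4 and 120 and 166 with PGE2. In both other conditions at once, 1913 of the risen (62.0%) and 1834 of the fallen genes (55.2%) kept their call. Libraries of a hairpin with the same replicate number deviated together across conditions, so the conditions are not shown to be separate cultures.

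The steepest changes largely recurred. Nedd4 was higher by 6.24 under IL-4 and 5.94 with PGE2, Cttn by 4.50 and 4.46, and Chpf by 4.36 and 3.69, and Slamf7 was lower by log2 values of -4.43 and -4.26, Axl by -2.99 and -3.12 and Ass1 by -2.92 and -2.95. A test of the difference of the hairpin effect, an interaction term in the same fit, called 559 genes for IL-4 (4.51%; 335 with a higher value, 2.71%, and 224 with a lower value, 1.81%, than without stimulus, and 361 or 360 in all without control shRNA IL-4 replicate 1 or 3) and 2338 for IL-4 with PGE2 (18.9%; 1362 higher, 11%, and 976 lower, 7.88%). These tests treat all libraries as independent and ignore the pairing of same-numbered libraries within a hairpin. Blocking on the replicate number, shared by both hairpins, gave an IL-4 count of 984 (585 higher, 399 lower), and with limma voom 987, while the voom count with PGE2 was 3634. Cx3cr1 was among the genes called in the main fit: its fall of 4.46 shrank to log2 values of -2.01 under IL-4 and -1.25 with PGE2 (difference 2.45, edgeR adjusted p = 0.00244, and 3.20, adjusted p = 0.0011). Its level dropped in both hairpin groups. The control mean went from 256 CPM without stimulus to 16.6 under IL-4 and 3.84 with PGE2, and the Etv1 hairpin mean from 11.5 to 4.11 and 1.56.

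Mitosis genes changed with the condition. Under IL-4 21 of the 29 fell and 0 rose (median -0.572), and with PGE2 4 fell and 8 rose (median 0.058). The difference from the unstimulated effect was called, always upward, for 8 members under IL-4 and 26 with PGE2. Over all genes it was upward for 2.71% and 11% and downward for 1.81% and 7.88%. Mki67 went from -1.37 to -0.86 and -0.23, and Anln from -1.63 to -1.17 and 0.03 (edgeR adjusted p = 0.88 for the last). The level of Anln dropped in both groups. Its mean went from 48.8 to 21.2 and 8.81 CPM with the control hairpin and from 15.7 to 9.49 and 8.91 with the Etv1 hairpin. Cholesterol synthesis genes held their direction, with 15 higher and 1 lower under IL-4 and 19 and 0 with PGE2, as did chemokines, with 3 and 10 and then 2 and 14. Alternative activation genes did not: 2 were higher and 14 lower under IL-4 and 2 and 15 with PGE2, and the difference was called downward for 6 and 9 of 23. Arg1 was lower by log2 values of -1.41 and -1.43 there and Egr2 by -1.03 and -1.04, against their rises without stimulus. Of 23 immediate early genes 21 were lower and 0 higher with PGE2, and the difference from the unstimulated effect was called downward for 11 and upward for 3, among them Atf3 (-1.59 to -0.15). Mean Atf3 was 122 CPM with the Etv1 hairpin against 367 with the control without stimulus, and 81.1 against 89.8 with PGE2.

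**Figure D4:**
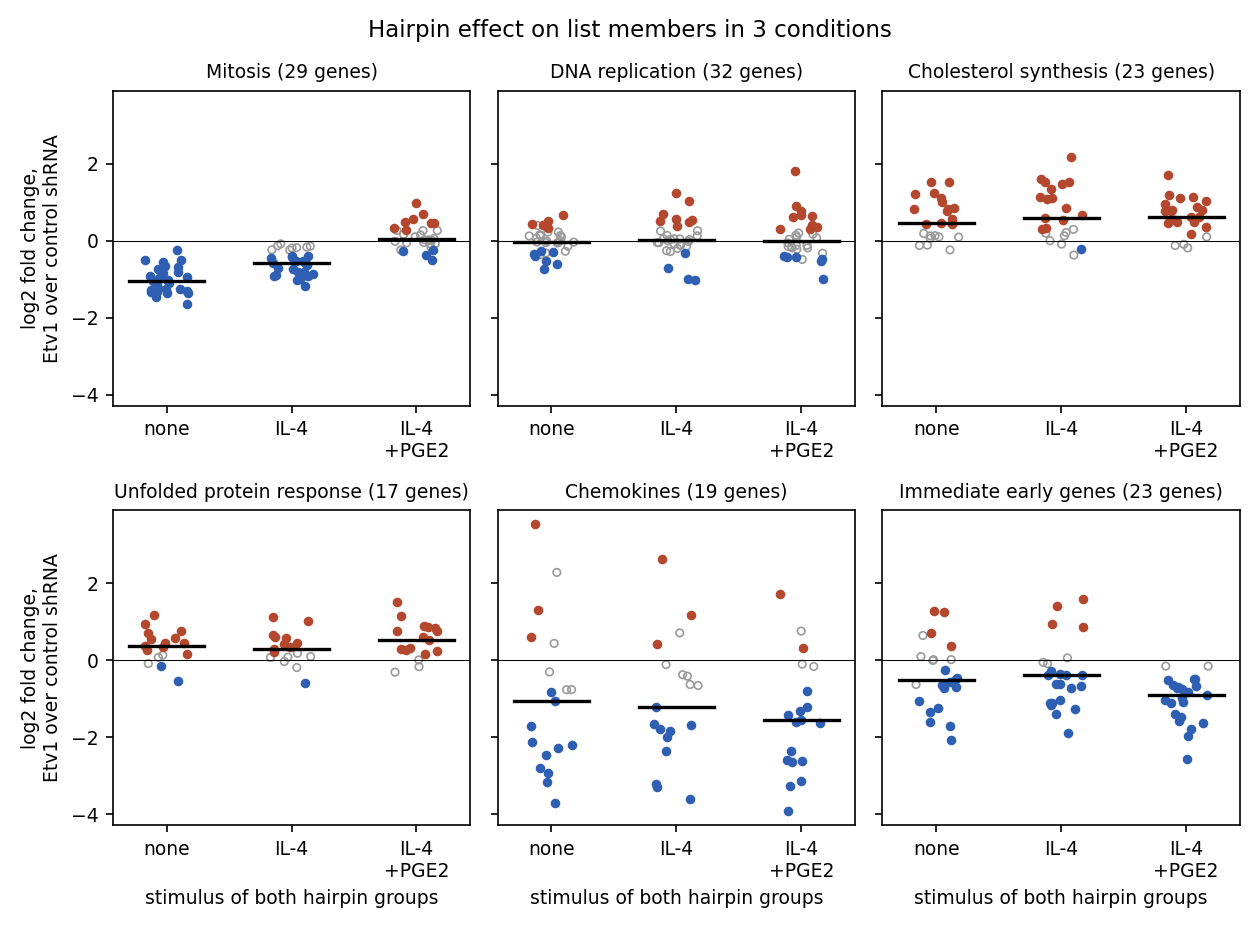
Log2 fold change of Etv1 over control shRNA for each tested member of 6 lists (points) without stimulus, under IL-4 and under IL-4 with PGE2; red points were called higher, blue lower, open grey not called, and the bar is the median. Mitosis genes move from all 29 lower to a median of 0.058 with PGE2, while cholesterol synthesis genes stay at medians above 0.4.

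Receptor genes for PGE2 also depended on the condition. Ptger4 was lower without stimulus but higher by 0.48 under IL-4 and at 0.19 (not called, adjusted p = 0.27) with PGE2, with differences of 1.37 (edgeR adjusted p = 6.28e-05) and 1.09 (adjusted p = 0.000322). Ptger2 stayed lower, at -1.45 and -1.25. Tlr5 and Dusp5, both higher without stimulus, were lower with PGE2, at -0.51 and -0.61, and Tlr13, lower without stimulus, was higher there at 0.55. Etv1 itself kept a like reduction, with differences of 0.30 (adjusted p = 0.71) and 0.02 (adjusted p = 0.97).

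**Figure D5:**
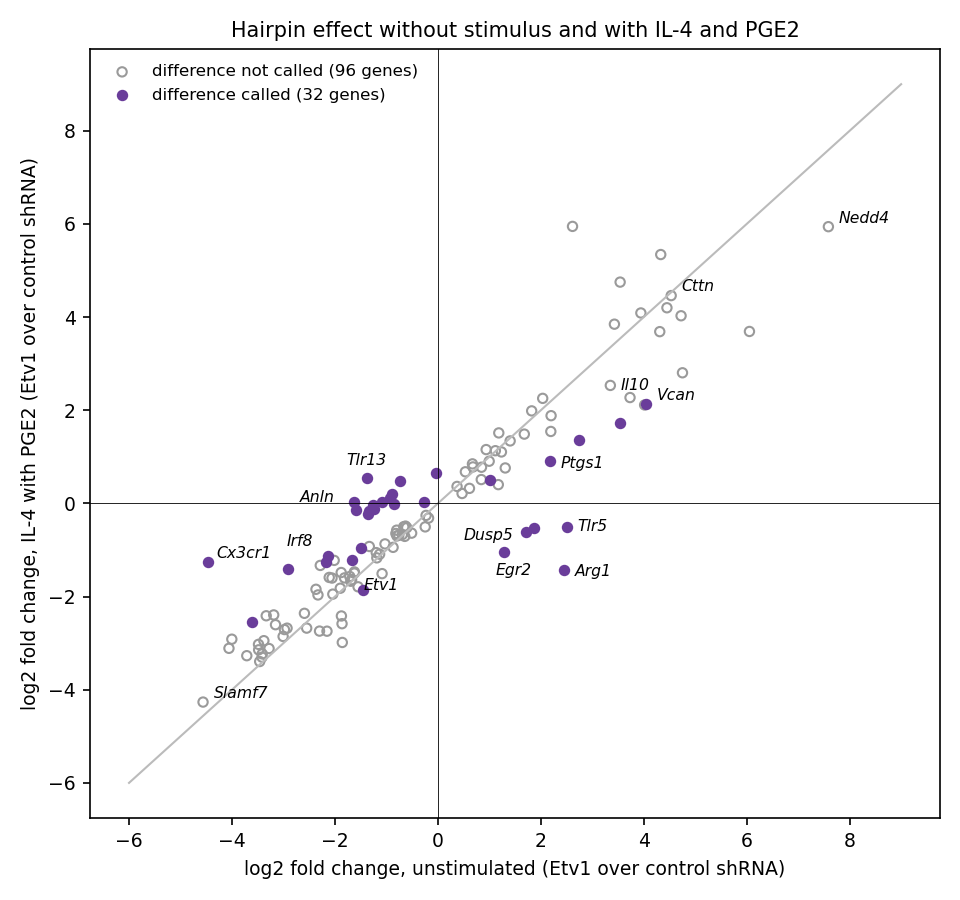
Log2 fold change of Etv1 over control shRNA without stimulus (horizontal) and under IL-4 with PGE2 (vertical) for the 128 genes named by value in the text that were tested; the grey line marks equal values, and the 32 filled points have a called difference. Cttn and Slamf7 lie near the line, Nedd4 lies 1.65 below it with no called difference, Cx3cr1 lies above it, and Arg1, Egr2, Tlr5 and Dusp5 change sign.

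The genes that fell without stimulus overlapped with those that IL-4 lowers in cells with no hairpin, where 46.4% of 12824 tested genes were called (24% higher, 22.4% lower). Among 11906 genes tested in both fits, 756 fell at least 2-fold with the Etv1 hairpin, and 316 of them (41.8%, and 11.3% of the 2793 genes lowered by IL-4 in wild type) also fell with IL-4 in unmodified macrophages, against 23.5% of all genes. Of the 384 that rose at least 2-fold, 121 rose with IL-4 in wild type (31.5%, and 4.07% of 2974), against 25.0%. Cx3cr1 was in the first set. These shares are descriptions, and no test of them was made.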

How the data were processed

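Messenger RNA was sequenced from mouse macrophages with a stranded poly(A) kit, per the labels' protocols. The authors deposited raw read counts per Ensembl gene, 1 table per library, made with STAR and featureCounts on GRCm38, per the submitters' processing notes, which also name DESeq2 and deepTools. Tool versions and the strand setting used for counting are not stated there. Overlapping and antisense genes and near-identical copies are therefore uncertain. Tables were joined by gene ID, with symbols and coordinates from GENCODE M21.

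All 18 shRNA libraries entered one edgeR 4.0.16 fit in R 4.3.3 (group means, TMM, filterByExpr, robust quasi-likelihood), which tested 12382 genes. A call is a Benjamini-Hochberg adjusted p under 0.05 over all of them. The SE is the absolute log2 fold change over the square root of F. The 12 wild type libraries were fitted alone. The procedure was tested on simulated data with known changes in 200 genes. That is far fewer than the genes called here, so the simulation does not cover changes this broad. Within a hairpin, same-numbered unstimulated and IL-4 libraries deviated together (correlations 0.187 to 0.49), so the numbers pair those conditions in the data, though the labels do not say so. The main fit ignores this pairing. Lists are described by counts and medians, without set tests. Promoters are RefSeq windows on GRCm38.p6, which matched 9475 of the tested genes.

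The comparison, the 46 lists and the tests were chosen with earlier results of these data known. Named by rule were Etv1, the 15 largest rises and falls with at least 5 CPM, separated groups and no model name, the 10 largest shared by all 3 hairpin contrasts, and up to 4 members per list with the smallest adjusted p. List members beyond these, such as Etv4, Adgre1, Tlr7, Ifit1, Ctsl, Mcm6, Ptger4, Got1 and Arg1, were chosen after their values were seen. Some list members are not reported here. Alternatives were other size factors (RLE), filters, DESeq2 1.42.0, limma voom (3.58.1), only the 6 libraries, a replicate block and each library left out.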

Additional observations from a re-analysis of the deposited data

Results flagged for a closer look

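These results stand out because the effect of the Etv1 hairpin differed between unstimulated cells and stimulated ones, by edgeR's quasi-likelihood test of the interaction with a Benjamini-Hochberg adjusted p under 0.05 over all genes. Values in parentheses are differences in log2 fold change, the stimulated effect minus the unstimulated one, so a positive value means a smaller fall or a larger rise under the stimulus. Such a value does not tell which hairpin group changed with the stimulus. The test takes no account of the pairing of same-numbered libraries within a hairpin. Of 29 mitosis genes 26 were shifted upward and 0 downward with IL-4 and PGE2, where 11% of all genes were shifted upward and 7.88% downward. Of 32 DNA replication genes 5 were shifted upward and 2 downward, near the shares of all genes. The named genes of both lists that were shifted were Anln (1.66), Kif11 (1.21), Mki67 (1.13), Prc1 (1.22), Racgap1 (1.16), Top2a (1.04), Mcm6 (0.68) and Pcna (0.31). With IL-4 alone they were Kif11 (0.65), Mki67 (0.50), Top2a (0.53) and Fen1 (0.35).

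Among the other named genes, the effect was shifted upward with IL-4 and PGE2 for Atf3 (1.44), Ccl3 (1.51), Ccnd1 (1.13), Cx3cr1 (3.20), Ddit3 (0.46), Dusp6 (0.55), Irf8 (0.99), Lyl1 (1.07), Pfkfb3 (1.11), Prdx1 (0.84), Ptger2 (0.93), Ptger4 (1.09) and Tlr13 (1.93). It was shifted downward for Arg1 (-3.89), Ccr3 (-1.39), Clec10a (-2.40), Dusp5 (-2.33), Egr2 (-2.32), Fcgr3 (-0.40), Itgav (-0.53), Ppbp (-1.80), Ptgs1 (-1.27), Tlr5 (-3.01) and Vcan (-1.90). Under IL-4 alone the shift was upward for Ccl3 (1.27), Ccl4 (1.89), Clec4e (1.43), Cx3cr1 (2.45), Dusp5 (0.60), Dusp6 (0.43), Hk1 (0.51), Irf8 (0.53), Pfkfb3 (0.82), Ptger4 (1.37), Tlr13 (0.99) and Tnfaip3 (0.70), and downward for Arg1 (-3.87), Egr2 (-2.32), Ocstamp (-1.54), Ptgs1 (-1.69) and Slc25a13 (-0.92). Arg1 and Egr2 were higher with the Etv1 hairpin without stimulus and lower under both stimuli. Tlr5 and Dusp5 were higher without stimulus and under IL-4 and lower with PGE2. Of 10 genes that follow RNA quality, 0 had a called difference under either stimulus. With IL-4 and PGE2, 1 of 5 tested monocyte markers was shifted upward and 1 downward, and 1 of 4 stromal markers upward. Downward shifts were called for 1 of 2 mast cell and basophil and 1 of 3 erythroid and megakaryocyte markers. Over all genes 11% were shifted upward and 7.88% downward. Under IL-4 alone 0 of these markers were shifted. The part of such differences in the shifts above was not tested.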

How the results depend on the processing

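The unstimulated count of 6405 calls was 6426 with RLE size factors, 6053 without a filter on low counts, 6392 with a minimum of 1 CPM in 3 libraries, 6008 with only the 6 libraries, 6056 with DESeq2, 6935 with limma voom, 6873 with the replicate number as a block and 5670 to 6030 with 1 library left out. Etv1 kept its call and direction in all of these. The difference between IL-4 and no stimulus moved more: 559 calls became 987 with voom (578 higher, 409 lower) and 984 with the replicate block (585 and 399), and 360 to 762 with 1 library left out (176 to 442 higher, 152 to 320 lower), with 360 and 361 without control shRNA IL-4 replicate 3 and 1. For IL-4 with PGE2 voom called 3634 differences (2064 higher, 1570 lower). The causes were not tested. Of the named genes Mcm6, not called, changed sign without Etv1 shRNA replicate 2, in a range of -0.0764 to 0.00291 with 1 library left out. The labels do not say whether the replicate numbers pair the hairpin groups. Deviations of same-numbered unstimulated libraries of the Etv1 and control hairpins correlated at 0.175, 0.224 and 0.0386. Those of differently numbered ones correlated at -0.191 to 0.0692. Pairing across the hairpins was not tested, and the main fit takes no account of it. Depth limits genes near the floor of 3 counts, such as Etv4, Spry4 and Ppbp.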

Other observations

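Wild type macrophages without a hairpin, left unstimulated, give a further level beside the hairpin groups, although transduction and experiment differ with them and cannot be told apart. On a joint scaling of the 9 libraries, wild type lay nearer to the control hairpin for 339 of 493 genes at least 2-fold higher with the Etv1 hairpin (68.8%) and for 607 of 762 at least 2-fold lower (79.7%). It often lay outside both hairpin groups: above both for 75 and below both for 209 of the 493, and above both for 405 and below both for 78 of the 762. Nedd4 stood at 61.0 ± 16.4 CPM with the Etv1 hairpin, 0.318 ± 0.173 with the control and 1.39 ± 0.142 in wild type (SD, n = 3 each). The proliferation gene Mki67 followed the same order of nearness, at 73.8 ± 6.13, 189 ± 18.5 and 307 ± 7.59 CPM, and Cx3cr1 lay between the hairpin groups in wild type, at 11.4 ± 4.46, 253 ± 41.0 and 101 ± 12.2.

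Other genes put wild type beside the Etv1 hairpin. Ass1 was at 11.1 ± 0.869 CPM with the Etv1 hairpin, 115 ± 11.9 with the control and 4.58 ± 1.14 in wild type. Acod1 was at 2.11 ± 0.845, 23.2 ± 8.21 and 1.86 ± 0.850 CPM and Ch25h at 4.27 ± 0.752, 47.5 ± 19.0 and 2.94 ± 0.938, so that for these genes the control hairpin group was the one that stood apart. For Ptger2 wild type was nearer the control, at 2.08 ± 0.34, 9.61 ± 0.63 and 13.5 ± 1.5 CPM. The control group did stand apart for Ptger4, at 25.3 ± 0.53, 46.5 ± 3.2 and 19.2 ± 0.95 CPM. It also did for Ccnd1 (580 ± 76, 1353 ± 294 and 591 ± 59), Clec4e (33.2 ± 6.5, 171 ± 15 and 12.9 ± 1.1) and Slc2a6 (11.9 ± 2.0, 43.6 ± 4.5 and 9.94 ± 0.62). The same held for rises: Fn1 was at 15.9 ± 3.43, 1.23 ± 1.03 and 26.2 ± 1.22 CPM, Mmp9 at 14 ± 7.01, 0.653 ± 0.150 and 7.5 ± 2.37, Ccr3 at 30.5 ± 4.91, 4.57 ± 0.415 and 39.3 ± 4.55, and Acp5 at 13.5 ± 1.74, 3.36 ± 0.840 and 23.0 ± 1.19. Other risen genes with wild type nearer the Etv1 hairpin were Ctsl (5976 ± 823, 2238 ± 729 and 5104 ± 157), Cd5l (304 ± 57, 94.1 ± 29 and 383 ± 12), Pf4 (231 ± 25, 92.1 ± 40 and 342 ± 2.7) and Clec10a (10.4 ± 1.9, 2.73 ± 0.18 and 9.20 ± 0.52). Arg1, Hmgcs1 and Insig1 also had wild type above both hairpin groups, at 2.95 ± 0.416, 77.3 ± 4.22 and 65.5 ± 5.32 CPM. No test was made across the experiments.

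Lists not described above were mixed. Of 20 p53 targets 3 rose and 10 fell, and of 18 hypoxia factor targets 2 rose and 7 fell. Of 14 interferon gamma module genes 2 rose and 2 fell. Of 40 ribosomal protein genes 9 rose and 4 fell, with no member at 2-fold, and leaving out 1 library gave 4 risen (control replicate 2, with 9 fallen), 5 (control replicate 1) or 16 (control replicate 3). Of 13 small RNA machinery genes 4 rose and 3 fell, and of 11 genes of mitochondrial DNA 2 rose and 1 fell. With 1 library left out the risen members numbered 1 to 2 for hypoxia targets, 1 to 4 for the small RNA machinery (1 without control replicate 2) and 0 to 2 for mitochondrial DNA (0 without Etv1 shRNA replicate 3 or control replicate 3, the latter with 2 fallen).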
